A study of Homo sapiens with 16 samples.

Results

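The genes described are the AHNAK giants AHNAK and AHNAK2, the annexins ANXA1, ANXA2 and ANXA5, the small S100 proteins S100A10, S100A6 and S100A11 that pair with them, and the giant cytolinkers PLEC and MACF1. These 10 genes were chosen by symbol because AHNAK2 had one of the largest falls in YEATS2 knockdown cells. Their fold changes and calls in that comparison are therefore given as a description and not as support. The table holds 12676 genes, among them 9 of the 10. S100A6 has no entry and is not analysed here.

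RNA-seq was carried out in the lung cancer line H1299, which is human and of the non-small cell type, to ask which mRNAs depend on YEATS2, the acetyl-lysine reader subunit of the ATAC histone acetyltransferase complex. The groups were shCtrl, which carried the shNT control vector, and shYEATS2, a YEATS2 Knock Down, with 2 libraries each. Both groups received lentivirus with 8 µg/ml polybrene, then from 48 h 2 µg/ml puromycin. The sample records give 4 to 7 days of selection, while the methods of the study give a shorter time. The study text names the shRNA shY2-1 for this experiment and calls the libraries independent biological replicates, neither of which the labels state, and the knockdown cells are a selected population of 1 cell line.

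AHNAK and AHNAK2 are scaffold proteins of exceptional length, built mostly of repeats, that sit under the plasma membrane and around membrane proteins such as calcium channels. AHNAK binds the heterotetramer of ANXA2 and S100A10, in which a dimer of S100A10 joins annexin molecules that dock on membranes when calcium rises. ANXA1 pairs with S100A11 in the same way, and annexins, S100 proteins and AHNAK gather at wounds in the plasma membrane during its repair, while PLEC and MACF1 tie cytoskeletal filaments to each other and to adhesion sites.

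Sequencing depth was 34718921 to 39417787 reads in listed genes per library, and the reads given are scaled for library size by edgeR's TMM method. YEATS2 itself (ENSG00000163872) had 4482.5 and 4103.88 scaled reads in shCtrl and 665.208 and 672.814 in shYEATS2, a log2 fold change of -2.68 ± 0.10 (SE). The line's vimentin and keratin genes VIM, KRT8 and KRT18 were read at 9029 to 105695 counts per library, and the 6 markers of leukocytes, endothelium, alveolar type 2 cells, fibroblasts and hepatocytes that were looked up had no entry. The RNA comes from whole cultures, so fewer cells of a kind and less RNA per cell cannot be told apart.

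The giants share a sequence feature that the other listed genes lack. The 7-base word AAGTTCA occurs again and again in their coding sequences, mostly as part of the 8-base word CAAGTTCA. Earlier work on the fold changes of these same libraries had singled out this word in 3′ untranslated regions (UTRs), so its presence is a description and not independent support. Stretches of 60 bases around copies in AHNAK2 and AHNAK are shown because they carry the repeats on which the description turns. All come from the GRCh37 genome, minus strand, within the coding part of the longest exon, and are written 5′ to 3′ with the word in capitals.
AHNAK2, chr14:105420003-105420062: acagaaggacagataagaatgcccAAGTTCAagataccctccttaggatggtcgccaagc
AHNAK2, chr14:105419733-105419792: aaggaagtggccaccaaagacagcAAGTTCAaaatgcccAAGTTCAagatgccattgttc
AHNAK2, chr14:105419259-105419318: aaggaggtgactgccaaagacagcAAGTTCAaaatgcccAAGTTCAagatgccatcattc
AHNAK2, chr14:105418764-105418823: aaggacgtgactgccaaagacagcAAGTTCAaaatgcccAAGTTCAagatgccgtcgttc
AHNAK, chr11:62299204-62299263: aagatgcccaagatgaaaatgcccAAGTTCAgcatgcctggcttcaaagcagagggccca
AHNAK, chr11:62299057-62299116: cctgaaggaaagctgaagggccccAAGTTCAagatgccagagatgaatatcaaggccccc
AHNAK, chr11:62298457-62298516: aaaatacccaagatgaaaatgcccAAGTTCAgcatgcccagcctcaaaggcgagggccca
AHNAK, chr11:62297689-62297748: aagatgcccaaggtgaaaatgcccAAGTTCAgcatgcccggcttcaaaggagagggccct

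In AHNAK2 most copies of the word come in close pairs, and the same pair returns at a regular distance. Of the 43 coding copies in AHNAK2, 18 neighbouring pairs start 15 bases apart and 17 start 480 bases apart, which together make a period of 495 bases that 32 pairs of copies share. AHNAK holds 27 coding copies with a less regular spacing, in which 6 neighbouring pairs start 147 bases apart and 3 start 384 bases apart. All 43 copies in AHNAK2 and 24 of the 27 in AHNAK start on the first base of a codon. The 8-base form CAAGTTCA accounts for 43 copies in AHNAK2 and 18 in AHNAK.

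Both giants carry nearly their whole coding sequence in a long exon. AHNAK2 (ENSG00000185567, chr14:105403581-105444711, minus strand) has a reference transcript of 18335 bases with 7 exons, and its longest exon of 17547 bases makes up 95.7% of it. AHNAK (ENSG00000124942, chr11:62201014-62323707, minus strand) has a reference transcript of 18761 bases with 5 exons, and its longest exon of 18173 bases makes up 96.9%. Every copy of the word in both genes lies in that exon, and neither gene has it in a 5′ or 3′ UTR.

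The word ranks both giants above all other genes that could be searched. Among the 11396 genes with a coding reference transcript, AHNAK2 and AHNAK held the most coding copies, and the next gene, TTN, held 15. A coding copy was found in 17.1% of these genes. The reverse complement TGAACTT was found in 14.9% of them, with at most 12 copies in a gene, and occurred 0 times in AHNAK2 and 7 times in AHNAK. A match is a property of the letters and was not tested as a binding site.

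**Figure D1:**
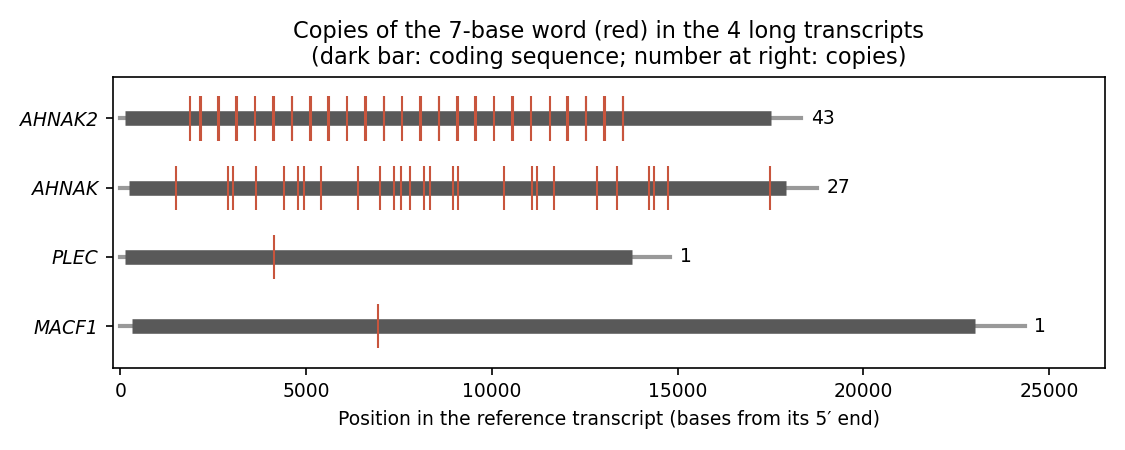
Positions of the 7-base word along the reference transcripts of AHNAK2, AHNAK, PLEC and MACF1, with the horizontal axis in bases from the 5′ end. AHNAK2 shows 43 copies, 36 of them in close pairs, and AHNAK 27, against 1 each in PLEC and MACF1.

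The annexins and S100 genes are short and hold no copy of the word. The reference transcripts of S100A10, S100A11, ANXA1, ANXA2 and ANXA5 run from 563 to 1638 bases, and none has AAGTTCA in any part. The copies did not simply go with length, since PLEC has a reference transcript of 14804 bases with 32 exons and MACF1 one of 24340 bases with 101 exons, and each holds 1 coding copy. For MACF1 that copy lies in its longest exon of 5451 bases.

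AHNAK2 mRNA fell the most of the listed genes. It had 25302.6 and 27311.5 scaled reads in shCtrl and 4618.13 and 3044.02 in shYEATS2. Both knockdown libraries lay far below both controls, at 14.6% of the control mean, and shYEATS2 replicate 1 was 1.52 times replicate 2. The means were 26307 ± 1420.54 and 3831.08 ± 1113.07 (SD, n = 2), which is 6.87-fold lower and a log2 fold change of -2.78 ± 0.20 (SE). Of all 12676 genes this was the second lowest value, between RP11-22P6.3 at -2.98 and UTP14A at -2.72.

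AHNAK mRNA fell next. It had 29425.7 and 31836.3 scaled reads in shCtrl and 10750.4 and 6120.75 in shYEATS2. The groups again did not overlap, and the knockdown libraries differed from each other by 1.76-fold, more than for any other listed gene. The means were 30631 ± 1704.56 and 8435.59 ± 3273.68 (SD, n = 2), which is 3.63-fold lower and a log2 fold change of -1.86 ± 0.25 (SE). AHNAK stood 33rd from the lowest of all genes, between TMEM64 at -1.89 and GINS4 at -1.85.

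The giants were also among the most abundantly read genes of the controls. Together they averaged 56938 scaled reads in shCtrl and 12267 in shYEATS2. Of the 635 genes with a mean of at least 10000 scaled reads, AHNAK2 had the lowest log2 fold change, the receptor tyrosine kinase gene AXL came next at -1.97 and AHNAK followed. The fall was steeper for AHNAK2 than for AHNAK within each library: the ratio of AHNAK to AHNAK2 reads was 1.16 and 1.17 in the controls and 2.33 and 2.01 in the knockdown libraries.

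**Figure D2:**
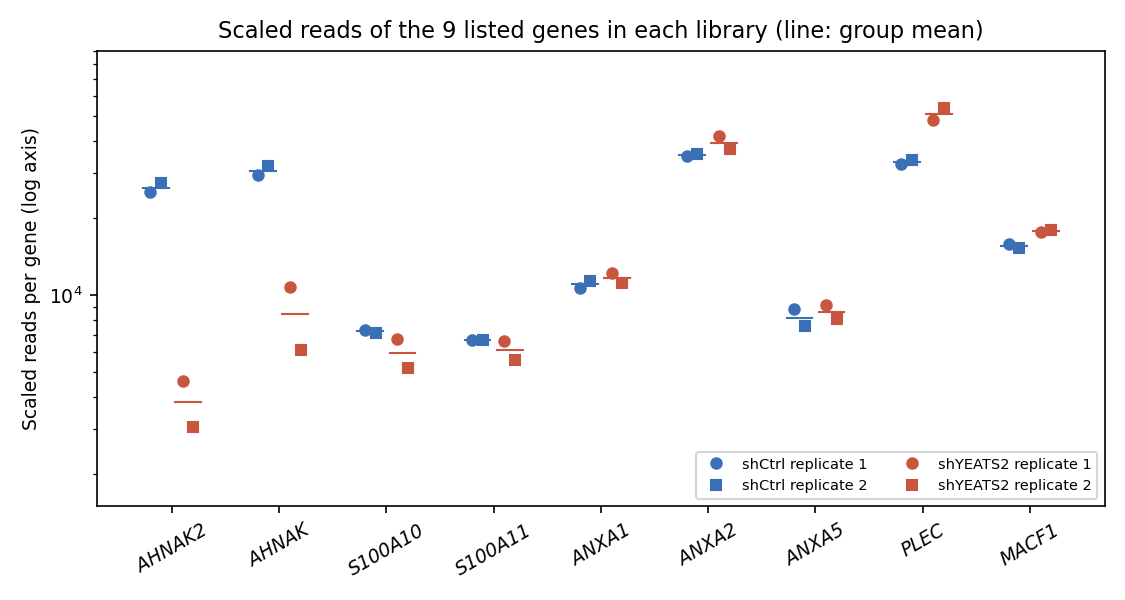
Scaled reads of the 9 listed genes in each of the 4 libraries, on a log axis, with a symbol for each library and lines for the group means. AHNAK2 and AHNAK drop from at least 25302.6 to at most 10750.4 scaled reads, while the annexins and S100 genes stay close to their control levels and PLEC lies higher.

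The S100 partners stayed near their control levels. S100A10 (ENSG00000197747), the light chain that joins ANXA2 molecules, had 7280.03 and 7139.22 scaled reads in shCtrl and 6713.98 and 5184.47 in shYEATS2. Both knockdown libraries were below both controls, replicate 1 by little and replicate 2 by more, and the log2 fold change was -0.28 ± 0.13 (SE). It was not called, but without shYEATS2 replicate 1 it was -0.47 and was called lower. S100A11 (ENSG00000163191), the partner of ANXA1, had 6696.85 and 6656.47 scaled reads in shCtrl and 6614.74 and 5577.01 in shYEATS2. Its knockdown replicate 1 lay next to the controls, and the log2 fold change was -0.13 ± 0.11 (SE).

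The annexins were not lower. ANXA2 (ENSG00000182718), which links membranes to actin and to S100A10, had 34881.9 and 35435.7 scaled reads in shCtrl and 41628.1 and 37118.8 in shYEATS2. Both knockdown libraries were above both controls, with a log2 fold change of 0.16 ± 0.10 (SE). ANXA1 (ENSG00000135046), known for its role in resolving inflammation, had 10656.4 and 11366.8 scaled reads in shCtrl and 12195.8 and 11127.5 in shYEATS2, a log2 fold change of 0.08 ± 0.10 (SE). ANXA5 (ENSG00000164111), the phosphatidylserine binder used to stain dying cells, had 8783.16 and 7537.35 scaled reads in shCtrl and 9112.46 and 8030.44 in shYEATS2, a log2 fold change of 0.07 ± 0.12 (SE). For ANXA1 and ANXA5 the libraries of the groups overlapped, and ANXA5 was below 0 when either shCtrl replicate 2 or shYEATS2 replicate 1 was left out, at -0.03 and -0.02.

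ANXA2 reads may include reads of a near copy. The processed pseudogene ANXA2P2 shares 575 of the 1505 stretches of 50 bases in the ANXA2 transcript (38.2%), so reads could be split between them. Its own counts were 259 and 282 in shCtrl and 340 and 351 in shYEATS2, far fewer than those of ANXA2.

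Of the cytolinkers, PLEC was called higher and MACF1 was not called. PLEC (ENSG00000178209, chr8:144989321-145050902, minus strand), which encodes plectin, a linker of intermediate filaments to hemidesmosomes and actin, had 32508.3 and 33637.1 scaled reads in shCtrl and 48173 and 53573.1 in shYEATS2. Both knockdown libraries were above both controls, the mean was 1.54-fold higher, and the log2 fold change was 0.62 ± 0.10 (SE). The call of PLEC was lost when either shCtrl replicate 1 or shCtrl replicate 2 was left out, with values of 0.59 and 0.65. MACF1 (ENSG00000127603, chr1:39546988-39952849, plus strand), a spectraplakin that links actin to microtubules, had 15779.1 and 15216.8 scaled reads in shCtrl and 17581.3 and 17920.2 in shYEATS2. Both knockdown libraries were again above both controls, with a log2 fold change of 0.20 ± 0.09 (SE).

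By the call rule of an FDR under 0.01 in edgeR's quasi-likelihood test, adjusted by Benjamini-Hochberg over all genes, 2 of the 9 genes were called lower (AHNAK2 and AHNAK), 1 was called higher (PLEC) and 6 were not called. Over all genes, 12.5% were called lower and 12.9% higher. Both knockdown libraries were below both controls for 4 of the 9 and above both for 3, against 39.8% and 39.7% of all genes. The choice of the genes used this comparison, so nothing is read from these shares. The 9 genes had a median log2 fold change of 0.07, against -0.00188 for all genes.

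The knockdown libraries differed in a common direction for most of the 9 genes. In 7 of the 9, all but PLEC and MACF1, shYEATS2 replicate 2 was lower than replicate 1, and in 4 of the 9 shCtrl replicate 2 was lower than shCtrl replicate 1. For AHNAK the log2 fold change was -2.32 without shYEATS2 replicate 1 and -1.51 without replicate 2. For AHNAK2 the corresponding values were -3.11 and -2.51.

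Ratios within a library show how the proportions of partners shifted without any scaling. PLEC and AHNAK were read almost equally in the controls, with PLEC to AHNAK ratios of 1.1 and 1.06, and the ratios were 4.48 and 8.75 in the knockdown libraries. For PLEC to AHNAK2 they were 1.28 and 1.23 in the controls and 10.4 and 17.6 in the knockdown libraries. The ratio of ANXA2 to AHNAK went from 1.19 and 1.11 to 3.87 and 6.06.

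The proportions among the annexins and S100 genes moved far less. The ratio of ANXA2 to its partner S100A10 was 4.79 and 4.96 in the controls and 6.2 and 7.16 in the knockdown libraries, 1.37-fold higher. The ratio of ANXA1 to its partner S100A11 was 1.59 and 1.71 in the controls and 1.84 and 2.0 in the knockdown libraries, and the ratio of ANXA2 to ANXA1 stayed between 3.12 and 3.41 in all 4 libraries.

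Read counts favour long transcripts, so levels between genes were compared as reads per kb of reference transcript per 1000000 listed reads. On that scale the order in the controls was ANXA2 (586.5 and 605.4), S100A11 (310.8 and 313.9), S100A10 (283.5 and 282.5), ANXA1 (198.7 and 215.4) and ANXA5 (140.1 and 122.2), followed by the giants and cytolinkers. The control levels of PLEC were 57.37 and 60.33, of AHNAK 40.98 and 45.05, of AHNAK2 36.06 and 39.55, and of MACF1 16.94 and 16.6. The ranges of neighbours in this order did not overlap in the controls. Every annexin and S100 gene lay above both giants on this per-length scale, although of these genes only ANXA2 was above them in scaled reads in the controls.

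In the knockdown libraries the giants moved down this order. AHNAK levels were 16.35 and 9.362 and AHNAK2 levels 7.187 and 4.764, so both lay below MACF1 at 20.61 and 21.13. Among the 12392 genes with a reference transcript, the rank of AHNAK went from 1835 in the controls to 5428, and that of AHNAK2 from 2097 to 8005. PLEC went from rank 1350 to 732, and ANXA2 from 98 to 61. The levels of S100A11 (335.3 and 284.2) and S100A10 (285.5 and 221.7) overlapped in the knockdown libraries.

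**Figure D3:**
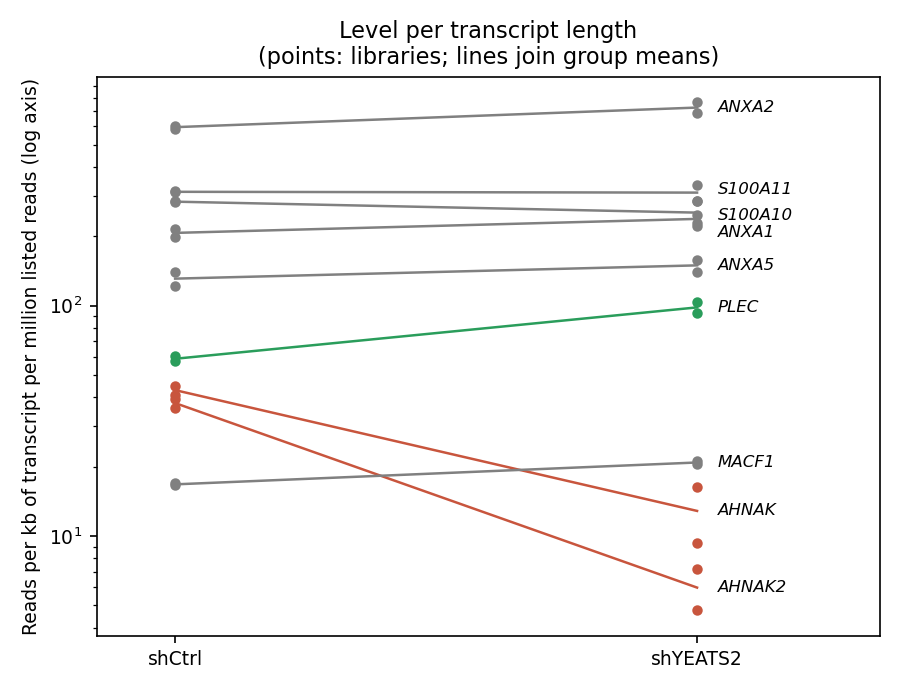
Level per transcript length of the 9 genes in the shCtrl and shYEATS2 libraries, in reads per kb of reference transcript per 1000000 listed reads on a log axis, with a point for each library and lines between group means. The lines of AHNAK (from 43.02 to 12.86) and AHNAK2 (from 37.8 to 5.976) cross that of MACF1 (from 16.77 to 20.87).

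The word that the giants repeat was then set against the fold changes of all genes. It had been singled out from fold changes of these same libraries, so the values that follow are a description. The 9446 genes without a coding copy had a median log2 fold change of 0.00, the 1615 with 1 copy -0.12, the 257 with 2 copies -0.22 and the 70 with 3 to 4 copies -0.10, so it did not fall steadily with the number of copies. Called lower were 12%, 18.3%, 20.6% and 21.4% of these genes, against 13.1% of all 11396. For the reverse complement the medians were -0.02 without a copy, -0.01 with 1, 0.05 with 2 and 0.13 with 3 to 4.

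AHNAK and AHNAK2 belong to the genes that hold the word in the coding sequence and not in the 3′ UTR. The 1641 such genes had a median log2 fold change of -0.12 and 18.1% were called lower. Where the word was in the 3′ UTR alone the median was -0.15 (1332 genes), where it was in both -0.23 (309 genes), and where it was in neither 0.02 (8114 genes). The median coding length was 2217 bases in the first group and 1314 in the last. The word had been singled out in 3′ UTRs of these same libraries, so the lower medians of genes with a 3′ UTR copy are not independent support. Among genes with at least 3000 coding bases and no copy in the 3′ UTR, the median was 0.21 with 0 coding copies (891 genes), 0.12 with 1 (378 genes), -0.04 with 2 (115 genes) and 0.04 with 3 or more (51 genes).

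The other genes with many copies that are described here did not share the size of the giants' fall. Besides AHNAK2 and AHNAK, 6 genes held at least 5 coding copies, and they were looked up after the values had been seen. NEB, which encodes the muscle protein nebulin, held 14 copies and was called higher, with 118 and 134 counts in shCtrl, 629 and 702 in shYEATS2 and a log2 fold change of 2.19. TTN, which encodes the muscle protein titin, held 15 copies and was not called at 0.11. POLA1, the catalytic subunit of DNA polymerase alpha, held 5 copies and was called lower at -1.15. C12orf55 with 5 copies (0.29) was not called. What the word has to do with the fall of AHNAK2 and AHNAK was not tested.

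**Figure D4:**
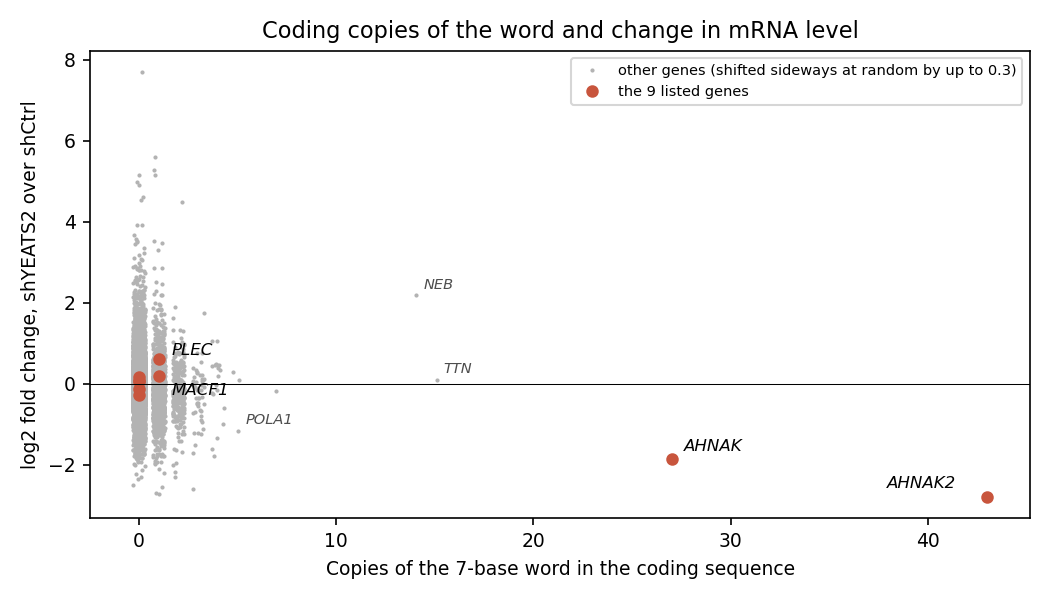
Log2 fold change of shYEATS2 over shCtrl against the number of coding copies of the word, for the 11396 genes with a coding reference transcript, with the listed genes marked. AHNAK2 (43 copies, -2.78) and AHNAK (27 copies, -1.86) lie alone at the lower right, and NEB (14 copies, 2.19) lies above.

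The repeats of the giants also bear on how reads can be placed. In AHNAK2, 12.3% of the 50-base stretches of the transcript occur more than once in it, up to 8 times, and in AHNAK 8.64%, up to 4 times. In PLEC the share was 0.271%, and in the other listed genes it was 0. Reads from such stretches can be lost by a counter that drops reads with several placements. Whether such losses occurred, or differed between libraries, was not tested.

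Lists of 117 further genes of the same families and pathways had 65 in the table, of which 8 were called lower, 7 higher and 50 not at all, with a median log2 fold change of -0.01. These shares of 12.3% lower and 10.8% higher were near those of all genes, 12.5% and 12.9%, against which the counts of each list below, of 2 to 16 genes, can also be read. None of the 6 other annexins was called by edgeR's quasi-likelihood test, and 1 of them, ANXA3, had an unadjusted p under 0.05, with 0 called by DESeq2 and 1 by exactTest. Their log2 fold changes ran from -0.10 to 0.86 with a median of 0.13. The most abundant were ANXA6 at 0.20 ± 0.11 (SE) and ANXA11 at 0.05 ± 0.09 (SE).

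Of the other S100 genes only S100A2 and S100A13 had an entry, and neither was called. The log2 fold changes were -0.61 ± 0.18 (SE) for S100A2, a gene often silenced in tumours, and -0.30 for S100A13, a carrier for secreted growth factors. At an unadjusted p under 0.05 there was 1 gene, DESeq2 called 0 and exactTest called 1, S100A2.

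Among the other plakins and PRX, an AHNAK-like gene of myelin, 1 of 4 was called. DST, the spectraplakin closest to MACF1, was higher, with 10958.8 and 11278.9 scaled reads in shCtrl and 15163.2 and 16267.8 in shYEATS2. Its groups did not overlap, and the log2 fold change was 0.50 ± 0.09 (SE), with an FDR of 0.00626 in edgeR's quasi-likelihood test. That FDR was 0.0552 without shCtrl replicate 1, 0.0381 without shCtrl replicate 2 and 0.0141 without shYEATS2 replicate 2. PRX was at -0.63 ± 0.16 (SE) and PPL, the desmosomal plakin periplakin, at 0.70 ± 0.26 (SE). Neither was called by the quasi-likelihood test without a replicate block on all 4 libraries, but PRX was without shYEATS2 replicate 1 (edgeR quasi-likelihood FDR 0.00466) and PPL without shCtrl replicate 2 (0.00293). PRX was also called lower by DESeq2 and exactTest.

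Among the intermediate filament genes, whose proteins plectin can bind, the B-type lamins of the nuclear envelope were lower. LMNB1 had 10992.1 and 10890.5 scaled reads in shCtrl and 5391.43 and 4260.56 in shYEATS2, and LMNB2 had 20766.3 and 19368.4 against 10285.7 and 7576.01. In both, each knockdown library lay below each control. The log2 fold changes were -1.18 ± 0.13 (SE) and -1.17 ± 0.15 (SE), with FDRs of 0.00134 and 0.00203 in edgeR's quasi-likelihood test.

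Of the 11 intermediate filament and lamin genes in the table, 2 were called lower, 1 higher and 8 not at all, with a median of -0.23. The higher one was the keratin KRT7 at 1.55 ± 0.24 (SE). Without shCtrl replicate 2 it was at 1.29 and not called. KRT7 had 84 and 56 counts in shCtrl and 240 and 234 in shYEATS2. It reaches the 101 reads that each gene in the table has in its highest library only in shYEATS2. Its higher call is therefore a description and not support. VIM was at -0.37 ± 0.12 (SE) and LMNA at -0.43 ± 0.10 (SE). Neither was called by edgeR's quasi-likelihood test on all 4 libraries. Without shYEATS2 replicate 1 both were called lower (edgeR quasi-likelihood FDR 0.00431 and 0.00963), and LMNA was also called by DESeq2 and exactTest.

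The microtubule-end proteins to which spectraplakins attach had 3 of 12 genes called higher and 0 lower, with a median of 0.36. MAPRE3, an end-binding protein, had a log2 fold change of 1.43 ± 0.14 (SE) and an FDR of 0.00108 in edgeR's quasi-likelihood test. MAPRE2 and CLASP1, both at 0.45 ± 0.09 (SE), passed by little at 0.00792 and 0.00852 in the same edgeR test. The call of MAPRE2 was lost without any 1 of the 4 libraries (FDR 0.0123 to 0.0641) and that of CLASP1 without shCtrl replicate 1, shCtrl replicate 2 or shYEATS2 replicate 2 (0.0206 to 0.0688). The abundant CKAP5, a microtubule polymerase, and MAPRE1 were at -0.44 and -0.13 and were not called, although CKAP5 was called lower by DESeq2 and exactTest.

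In plasma membrane repair, the process that brings annexins and AHNAK together, 1 of 16 genes was called lower, 1 higher and 14 not at all, with a median of 0.07. DYSF, which encodes dysferlin, the calcium sensor of repair, had only 6 and 5 counts in shCtrl and 44 and 104 in shYEATS2. Its log2 fold change was 3.52 ± 0.57 (SE). Each gene in the table has at least 101 reads in its highest library, which DYSF reaches only in shYEATS2 replicate 2. Its entry thus rests on the group where it is high, so its higher call is a description and not support. With either shYEATS2 library left out DYSF was not tested. EHD4, an ATPase of membrane trafficking, was at -0.49 ± 0.10 (SE) with an FDR of 0.00699 in edgeR's quasi-likelihood test. With total-count scaling EHD4 was at -0.37 and not called (FDR 0.0156), and without shCtrl replicate 1, shCtrl replicate 2 or shYEATS2 replicate 2 its FDR was 0.0188 to 0.046. Dysferlin's relative MYOF was at 0.32 and CAPNS1, the small calpain subunit, at -0.58, and neither was called. CAPNS1 was called lower without shYEATS2 replicate 1 (edgeR quasi-likelihood FDR 0.00112), and also by DESeq2 and exactTest.

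Among the caveola genes, CAV1 was lower. It had 15223.9 and 15465.2 scaled reads in shCtrl and 5423.85 and 4529.34 in shYEATS2, a log2 fold change of -1.62 ± 0.12 (SE) with an FDR of 0.000793 in edgeR's quasi-likelihood test. Its partners PTRF and CAV2 were at 0.16 and -0.15 and were not called, and the median of the 4 genes was -0.08.

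The plasminogen system, which ANXA2 and S100A10 are known to bind at the cell surface, had 2 of 6 genes called lower, 1 higher and 3 not at all, with a median of -0.21. SERPINE2, a protease inhibitor, had 264.689 and 286.393 scaled reads in shCtrl and 1348.1 and 1195.33 in shYEATS2. PLAU, the activator urokinase, had 16878.8 and 16163.9 against 10021.3 and 10090.4. The log2 fold changes were 2.21 ± 0.13 (SE) for SERPINE2 and -0.72 ± 0.09 (SE) for PLAU, with FDRs of 0.000793 and 0.00186 in edgeR's quasi-likelihood test.

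The plasminogen receptor PLGRKT was at -0.63 ± 0.13 (SE) with an FDR of 0.00763 in edgeR's quasi-likelihood test, which became 0.0141 with total-count scaling and 0.0147 to 0.0526 without shCtrl replicate 1, shCtrl replicate 2 or shYEATS2 replicate 2. The urokinase receptor PLAUR was at 0.22 and was not called.

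Of 4 other partners and receptors, 2 were called lower, with a median of -0.35. CACYBP, which binds S100 proteins, had 8066.56 and 7970.19 scaled reads in shCtrl and 4027.6 and 3367.6 in shYEATS2, and the groups lay well apart. Its log2 fold change was -1.12 ± 0.11 (SE), with an FDR of 0.00118 in edgeR's quasi-likelihood test. SUGT1, a chaperone adaptor, was at -0.43 ± 0.09 (SE) with an FDR of 0.00998 in that edgeR test, at the threshold, and the call was lost without any 1 library (0.0123 to 0.07) and with total-count scaling (0.0298). TGM2, a transglutaminase, was at 0.74 ± 0.17 (SE) and AGER, a receptor of S100 proteins, at -0.26. Neither was called, but TGM2 was without shYEATS2 replicate 1 (edgeR quasi-likelihood FDR 0.000523), and also by DESeq2, by exactTest and with total-count scaling.

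**Figure D5:**
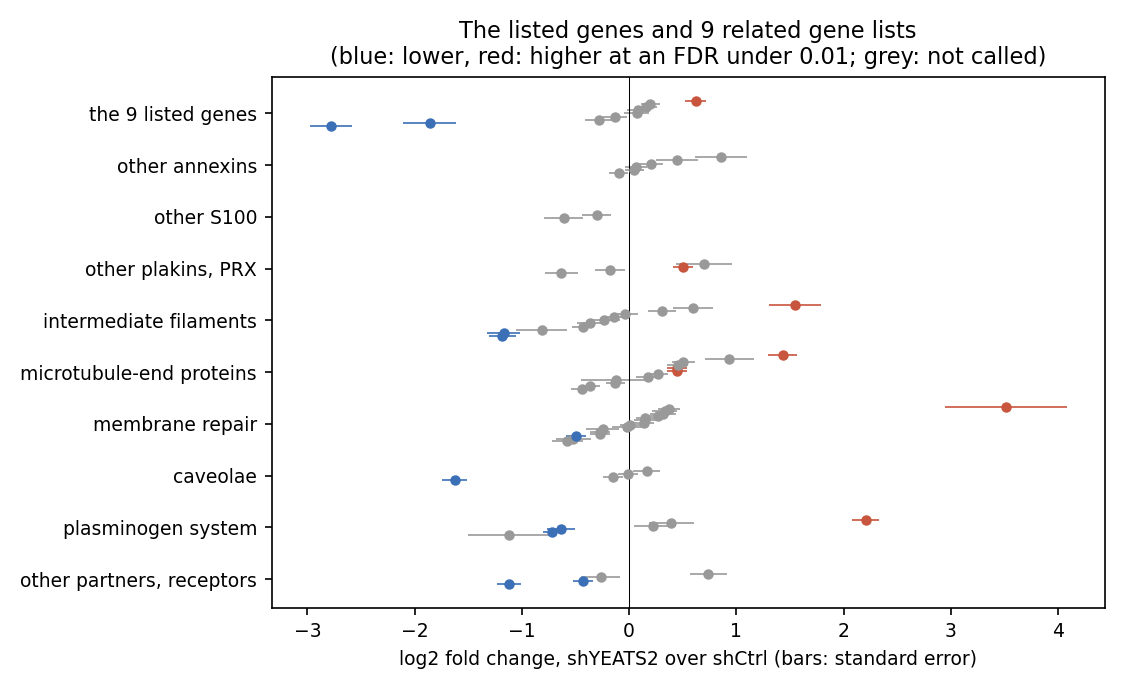
Log2 fold changes of the 9 genes with their standard errors and of the genes in the related lists, a line per list with a point per gene. AHNAK2 and AHNAK lie below every gene of the related lists, whose values run from -1.62 (CAV1) to 3.52 (DYSF). The 9 genes were chosen around the fall of AHNAK2 in these data, so this order is a description.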

How the data were processed

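RNA-seq libraries of H1299 cells (2 shCtrl and 2 shYEATS2, grouped by their labels) were analysed, and the ChIP-seq samples were not analysed here. The table that the authors deposited holds HTSeq counts of reads per gene, not normalized. The methods name the RNA-Seq unified mapper and the submitters' processing notes TopHat2 2.0.10, with hg19. The TruSeq mRNA kit does not mark strand, so reads of a gene and an antisense partner cannot be told apart. The methods give default HTSeq parameters, which count by strand, and with this kit part of the reads of each gene may then be missing from the counts and levels, which was not tested. A check of overlaps found that no gene that overlaps a listed gene has an entry in the table. Each gene in the table has at least 101 reads in its highest library, by a filter not given in the sources used here. The deposited columns of log2 fold change, p-value and FDR are the result of the comparison made by the authors and were not used. Every column of per-sample values was assigned (0 left out).

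A minimum of 10 reads in 2 or more libraries left all 12676 genes in the test. Groups were compared with the quasi-likelihood test of edgeR 4.0.16 under R 4.3.3, TMM scaling (factors 0.9517 to 1.045), Benjamini-Hochberg adjustment over all genes and an FDR under 0.01. The biological coefficient of variation was 0.107 and the median SE of a log2 fold change 0.123. The fit was tested on simulated data of the same design and depth, 12676 genes with a dispersion of 0.01, in which 200 genes had a true log2 fold change of 1 or -1. It called 190 of the 200, all with the right sign, and 0 unchanged genes, and exactTest called 189 and 1. Every simulated gene had the same dispersion, and far fewer genes changed than were called in the data. These rates therefore need not hold for the data. Alternatives were DESeq2 (1.42.0), exactTest, size factors, total counts, other filters, an FDR under 0.05, a replicate block and each library left out. When a library is left out, its group has 1 library, which is assumed to vary like the other group.

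The genes and lists were chosen with earlier results of these data known. All listed genes, YEATS2, near copies, and in each related list up to 4 called genes with the largest change and up to 2 abundant uncalled genes are named. Some single genes that this rule names are not reported here, and ANXA3 and the genes with many copies of the word were chosen after their values were seen. Of the Ensembl identifiers, 12465 of 12676 matched GENCODE v44 lifted to GRCh37, whose canonical transcript served as the reference transcript. Both strands of the transcript were searched for the 7-base word.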

Additional observations from a re-analysis of the deposited data

How the results depend on the processing

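With 2 libraries a group, small changes such as those of ANXA1, ANXA5 and S100A11 could not be separated from the spread. AHNAK2 and AHNAK were called lower and PLEC higher in all alternatives with every library. The genes were chosen from this same comparison, so these calls are a description and not independent support. AHNAK2, AHNAK, S100A10 and S100A11 had negative log2 fold changes in all 13 settings. Of the 9 genes only ANXA5, which was not called, changed sign. Total-count scaling put the median over all genes at 0.118 on the log2 scale, against -0.00188 with TMM, gave 0.20 for ANXA1, 0.28 for ANXA2, 0.74 for PLEC and 0.32 for MACF1, and split the calls into 1166 lower and 2363 higher, against 1581 and 1630 with TMM. Genes called lower and higher numbered 2497 and 2596 with exactTest and 3011 and 3093 at an FDR under 0.05. In the related lists the lower and higher calls, 8 and 7, became 14 and 12 with DESeq2, 17 and 14 with exactTest, 5 and 11 with total counts, and 19 and 14 at an FDR under 0.05. Several list genes close to the threshold (PRX, LMNA, CKAP5, CAPNS1 and TGM2) were called by DESeq2, by exactTest and with the block but not by the quasi-likelihood test without it. The causes of these differences were not tested.

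The replicate numbers are shared by both groups, but nothing says that they pair the libraries, and the deviations of equal numbers correlated across 12676 genes at r = 0.404, with only 2 pairs. With the replicate block, 2715 genes were called lower and 2742 higher, and 17 and 15 in the related lists. Among the genes named in the text, those called on all 4 libraries at an FDR under 0.01 with the block alone were PPL at 0.74 (edgeR quasi-likelihood FDR 0.00312) and VIM at -0.38 (0.00949). The number of calls among the 9 genes stayed at 2 lower and 1 higher.

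With each library left out, the genes called lower numbered 850 to 2024 and higher 775 to 1971. Of the 9 genes, 2 to 3 were called lower (the third was S100A10, without shYEATS2 replicate 1) and 0 to 1 higher (PLEC), and in the related lists 5 to 15 lower and 3 to 10 higher. Log2 fold changes ranged from -2.32 to -1.51 for AHNAK, -3.11 to -2.51 for AHNAK2, -0.47 to -0.10 for S100A10, -0.26 to -0.01 for S100A11, 0.02 to 0.15 for ANXA1, 0.08 to 0.24 for ANXA2, -0.03 to 0.18 for ANXA5, 0.54 to 0.70 for PLEC and 0.17 to 0.22 for MACF1. The difference in median between genes with the word in the coding sequence alone and in neither place, chosen after seeing the data, was -0.14, with -0.14 under total counts, -0.11 in genes of at least 3000 coding bases, 0.01 for the reverse complement and -0.18 to -0.11 with each library left out.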
